A study of Homo sapiens with 12 samples.

Results

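The IFIT and IFITM families are antiviral genes of the interferon response, and 7 of them were measured in neuroblastoma cells across 4 treatment groups. The members are IFIT1, IFIT2, IFIT3 and IFIT5 (interferon-induced proteins with tetratricopeptide repeats) and IFITM1, IFITM2 and IFITM3 (interferon-induced transmembrane proteins). They were picked by name, and they are 7 of the 43769 genes in the count table and 7 of the 15828 genes with enough reads to be tested. IFNγ raised 6 of the 7, where 2.10% of all tested genes were called higher. Among them, IFIT2, IFIT3, IFITM1 and IFITM3 entered the test only through their reads in libraries with IFNγ. With doxycycline added, IFIT2 and IFIT3 reached 44.7% and 36.8% of their level under IFNγ alone. Both differences passed the test over all genes, where 0.569% were called lower, but neither passed it in every model. In a model that pairs libraries by replicate number, 5 members were called lower, IFITM1 and IFITM3 among them, where 6.62% of all tested genes were.

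IFIT proteins bind RNA or act beside the members that do, and block the translation of viral RNA that lacks the cap marks of the host. IFITM proteins sit in cell membranes and hinder the fusion of enveloped viruses. Both families are classically induced by type I interferons, through ISGF3, a complex that contains STAT2 and IRF9 and binds the interferon-stimulated response element (ISRE). IFNγ acts on genes that carry the gamma-activated site (GAS), and through IRF1, which also recognises ISRE-type sequence.

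The study asked how loss of ARID1A, a DNA-binding subunit of the SWI/SNF chromatin remodeler, alters the response to IFNγ. RNA was sequenced from SK-N-DZ, a MYCN-amplified human neuroblastoma line, in 4 groups of 3 libraries. Group C was untreated (genotype WT in the labels), D had doxycycline for 4 days (genotype shARID1A), I had IFNγ for 24 h (WT), and DI had both (shARID1A, IFN). The methods describe a clonal line with a lentiviral hairpin against ARID1A that doxycycline switches on, so a single clone stands for the line, and the hairpin cannot be told apart from doxycycline itself. The labels do not say that replicates came from separate cultures, so p-values measure the spread between these libraries, which may be technical.

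Libraries held 16469832 to 21790869 counts, at which 3 counts, taken as the detection floor, equal 0.135 to 0.187 CPM (counts scaled to a common library size). ARID1A mRNA lay at 165 to 197 CPM in C and 158 to 197 CPM in D, ranges that overlapped (edgeR adjusted p = 0.788). It lay at 192 to 202 CPM in I and 133 to 151 CPM in DI, which did not overlap, with a log2 difference of -0.44 (SE 0.11) and an edgeR adjusted p of 0.115, or 0.0111 with the replicate number as a block. The groups are therefore named here by treatment. All 9 neuroblastoma markers were above the floor in each group and summed to 4219 to 5579 CPM. Single markers differed more than the sum, and TH had group means of 41.7 (C), 3.02 (D), 27.5 (I) and 1.91 CPM (DI). Of the 9, 6 had a log2 difference under 0 in D against C, with none called by edgeR. With the block, edgeR called DBH and HAND2 lower in D against C, where 7.67% of all tested genes were. In DI against I it called HAND2 lower, where 6.62% were. The 5 leukocyte markers summed to 0.198 to 1.25 CPM, with CD3E at 0 and CD14 at group means of 0.312 to 0.621 CPM. Fibroblast markers summed to 12.3 to 65.8 CPM, with PDGFRA at group means of 19.5 to 24.8 CPM. Endothelial markers summed to 0.116 to 2.94 CPM, with PECAM1 at 0 and VWF at group means of 0.814 to 2.14 CPM. The share of counts from mitochondrial mRNAs ranged over 3.35% to 4.99% (C) and 2.90% to 4.42% (I) without doxycycline, and over 0.856% to 1.30% (D) and 0.768% to 2.58% (DI) with it, without overlap. The part of this difference in the results below was not tested.

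The IFIT genes form a cluster on chromosome 10 and the IFITM genes one on chromosome 11 (GRCh38, GENCODE 29). In order along the plus strand, IFIT2 spans chr10:89283694-89309276, IFIT3 chr10:89327894-89340971, IFIT1 chr10:89392546-89406486 and IFIT5 chr10:89414586-89421001. IFITM2 spans chr11:307631-315272 and IFITM1 chr11:313506-315272 on the plus strand, and IFITM3 spans chr11:319669-327537 on the minus strand. Several of these models share bases with other genes, and the counting tool and its use of strand are not given in the sources used here. IFITM1 and IFITM2 share 351 exon bases, IFIT2 shares 65 with LIPA on the other strand and 356 with AL353751.1, and IFITM3 shares 287 with AC136475.5. Of all 150-base stretches of their transcripts, 20.7% for IFITM1 and 15.4% for IFITM2 occur word for word in the other gene, against none for IFITM3 and the IFIT genes. Reads could thus be split between IFITM1 and IFITM2, and their separate levels are uncertain to that extent.

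Promoter windows of 300 bases, from 250 before to 50 after the start site, were taken from RefSeq (GRCh38.p14) for the 5 members that have one, with a pair of start sites for IFIT3. They are shown because the same short element recurs in all of them. Both strands were searched for the ISRE-type letters GAAANNGAAA (TTTCNNTTTC on the other strand) and the GAS-type letters TTCNNNGAA. Capitals mark the ISRE-type matches, and each sequence runs 5′ to 3′ on the strand of its gene.
IFIT1, chr10:89392373-89392672, plus strand: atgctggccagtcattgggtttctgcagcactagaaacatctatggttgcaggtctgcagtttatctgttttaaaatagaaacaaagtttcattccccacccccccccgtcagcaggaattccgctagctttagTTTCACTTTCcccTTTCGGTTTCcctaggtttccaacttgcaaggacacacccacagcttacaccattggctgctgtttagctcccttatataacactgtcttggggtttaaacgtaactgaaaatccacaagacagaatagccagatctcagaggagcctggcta
IFIT3, upstream start, chr10:89327747-89328046, plus strand: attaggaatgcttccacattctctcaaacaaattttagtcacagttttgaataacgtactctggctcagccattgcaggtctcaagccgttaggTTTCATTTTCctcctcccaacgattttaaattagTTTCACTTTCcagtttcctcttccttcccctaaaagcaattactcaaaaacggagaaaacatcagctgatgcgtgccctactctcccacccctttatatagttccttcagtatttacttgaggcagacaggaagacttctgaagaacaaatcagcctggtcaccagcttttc
IFIT3, downstream start, chr10:89332279-89332578, plus strand: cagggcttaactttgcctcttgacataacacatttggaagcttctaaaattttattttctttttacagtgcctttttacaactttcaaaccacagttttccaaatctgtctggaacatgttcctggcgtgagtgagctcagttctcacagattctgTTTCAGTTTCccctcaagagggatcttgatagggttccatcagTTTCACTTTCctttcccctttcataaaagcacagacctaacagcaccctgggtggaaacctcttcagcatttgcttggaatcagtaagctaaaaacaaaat
IFIT5, chr10:89414318-89414617, plus strand: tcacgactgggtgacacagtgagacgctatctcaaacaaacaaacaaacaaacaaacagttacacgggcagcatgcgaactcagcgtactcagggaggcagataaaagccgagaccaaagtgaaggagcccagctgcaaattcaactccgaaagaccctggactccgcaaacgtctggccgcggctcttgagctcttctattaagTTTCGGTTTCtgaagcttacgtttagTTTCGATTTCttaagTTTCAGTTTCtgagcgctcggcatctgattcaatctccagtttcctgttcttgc
IFITM1, chr11:313790-314089, plus strand: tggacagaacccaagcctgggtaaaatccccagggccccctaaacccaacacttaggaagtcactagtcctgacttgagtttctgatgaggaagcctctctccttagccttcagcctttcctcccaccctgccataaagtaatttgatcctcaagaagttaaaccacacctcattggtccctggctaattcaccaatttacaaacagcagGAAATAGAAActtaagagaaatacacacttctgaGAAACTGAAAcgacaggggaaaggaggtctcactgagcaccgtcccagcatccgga
IFITM3, chr11:320811-321110, minus strand: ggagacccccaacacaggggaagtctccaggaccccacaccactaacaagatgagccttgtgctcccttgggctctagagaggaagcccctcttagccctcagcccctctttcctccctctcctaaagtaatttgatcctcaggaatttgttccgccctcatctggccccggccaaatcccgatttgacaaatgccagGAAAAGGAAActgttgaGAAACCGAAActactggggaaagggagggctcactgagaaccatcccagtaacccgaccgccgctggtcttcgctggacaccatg

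All 6 windows held at least 2 ISRE-type matches, and IFIT5 held 3. Over 35116 RefSeq promoter windows of this length, 3.57% held at least 1 ISRE-type match and 0.259% held at least 2. In IFIT1 the matches began 116 and 103 bases before the start site. In IFIT5, the member with the smallest called response to IFNγ, they began at 45, 19 and 4 bases before it. IFITM1 also held the only GAS-type match, beginning 12 bases before the start and overlapping the ISRE-type match at 6 bases before it, where 7.66% of all windows held a GAS-type match and 0.439% held both kinds. The IFITM3 matches began 52 and 35 bases before the start. These are matches of letters, not measured binding.

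Untreated cells contained IFIT5 and very little of the other members. IFIT5, which binds the 5′ end of RNA, lay at 48.3, 36.6 and 51.2 CPM in the 3 C libraries. IFIT1, the member that recognises RNA caps lacking host methylation, lay at 0.737, 1.24 and 1.06 CPM, and IFIT2, its partner, at 0.307, 0.347 and 0.249 CPM. These low values rest on 12 to 25 reads for IFIT1 and 4 to 7 for IFIT2. IFIT3, which binds IFIT1 and stabilises it, had 2, 0 and 1 reads, and IFITM1, found mostly at the cell surface, had 1, 3 and 0 reads, so both were at or under the floor. IFITM3, found in endosomes, and its close relative IFITM2 were uneven in C. IFITM3 lay at 0.491, 1.99 and 0.0623 CPM and IFITM2 at 0.737, 3.57 and 0.374 CPM, with C replicate 2 the highest for both.

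Set per length of merged exons (RPKM, CPM per kilobase), the order in C was IFIT5 at 11.3 ± 1.92, IFITM2 at 1.01 ± 1.14, IFITM3 at 0.628 ± 0.749, IFIT1 at 0.219 ± 0.0553, IFIT2 at 0.0735 ± 0.0120, IFITM1 at 0.0649 ± 0.0693 and IFIT3 at 0.0234 ± 0.0233 RPKM (SD, n = 3). IFIT5 did not overlap the next gene. IFITM2, IFITM3 and IFIT1 overlapped each other in that order, as did IFIT2, IFITM1 and IFIT3. IFIT5 accounted for 97.2% ± 0.805 of the summed IFIT level in C and 95.8% ± 0.967 in D (SD, n = 3). The remaining relatives of the families were close to absent, with at most 6 reads in a library for IFIT1B, 4 for IFITM10 and 0 for IFITM5.

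IFNγ alone raised 6 of 7 members, where 2.10% of all tested genes were called higher and 0.114% lower. IFIT3 went from the floor to 256.6, 347 and 215 CPM in the 3 I libraries. IFITM1 went from the floor to 130.3, 204 and 74.9 CPM, and IFITM3 reached 182, 218 and 98.7 CPM. Every I library exceeded every C library for these genes, as for 8.83% of all tested genes. In bulk RNA, more cells responding and more RNA per cell cannot be told apart.

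For the members with reads in C, the log2 fold change was 5.78 (SE 0.30) for IFIT1, 7.47 (SE 0.30) for IFIT2, 7.52 (SE 0.71) for IFITM3 and 1.34 (SE 0.15) for IFIT5. The edgeR adjusted p-values were 8.16e-07, 9.56e-08, 8.67e-05 and 0.000283. IFIT1 stood at 61.2, 64.6 and 43.5 CPM in I, IFIT2 at 49.3, 68.8 and 47.3 CPM, and IFIT5 at 124, 119 and 100.9 CPM. The smallest of these responses was thus that of the gene with the highest starting level. IFIT3 and IFITM1 had so few reads in C that the ratio of the summed reads is the better measure. It was 4752 for IFIT3 (95% counting interval 1626 to 23046) and 1778 for IFITM1 (694 to 6528), on 3 and 4 reads in C. Their edgeR adjusted p-values were 7.47e-08 and 5.63e-05, and these intervals cover counting error only. IFIT2, IFIT3, IFITM1 and IFITM3 entered the test only through their reads in libraries with IFNγ, while IFIT1, IFIT5 and IFITM2 would have passed the count filter on C and D alone.

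IFITM2 was the member not called. It lay at 6.72, 14.4 and 2.57 CPM in I, where replicate 3 was below C replicate 2, so the groups overlapped. Its log2 fold change was 2.31 (SE 0.81) with an edgeR adjusted p of 0.335. With the replicate number as a block it was 2.37 with an edgeR adjusted p of 0.0156, and 7 of 7 members were then called, where 4.88% of all genes were called higher. Without C replicate 2, IFITM2 was also called, at 3.80 with an edgeR adjusted p of 0.0478.

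**Figure D1:**
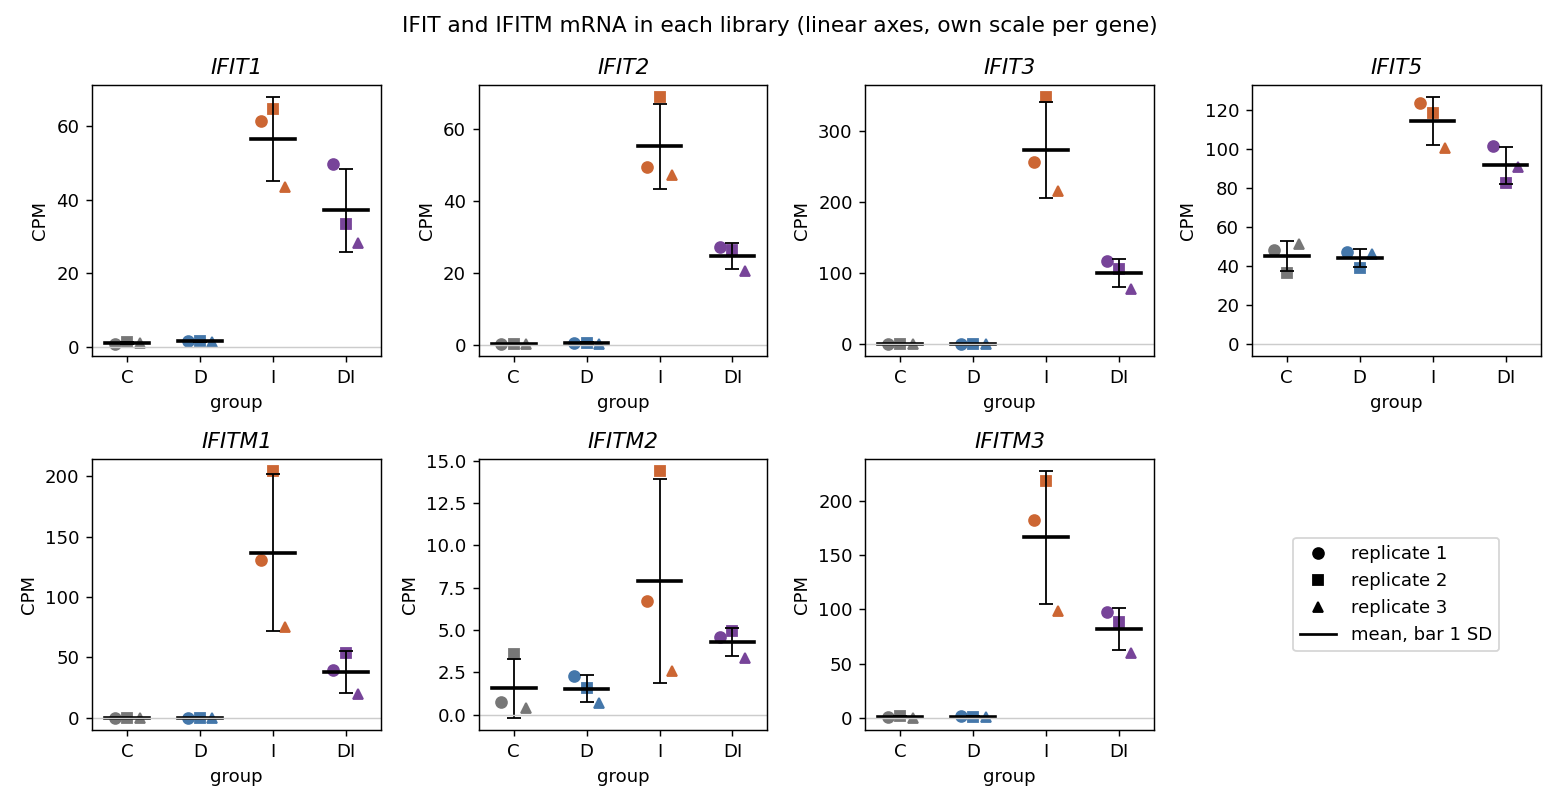
CPM of each member in the 12 libraries, on a linear axis of its own for each gene; points are libraries with their replicate number, the line is the group mean and the bar 1 SD (n = 3). C and D lie near 0 for all genes but IFIT5 and IFITM2, and DI lies below I without overlap for IFIT2, IFIT3, IFITM1 and IFITM3.

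The make-up of each family under IFNγ was unlike that in untreated cells. In I, the per-length order was IFITM1 at 126 ± 60.1, IFITM3 at 123 ± 45.4, IFIT3 at 103 ± 25.7, IFIT5 at 28.5 ± 3.03, IFIT2 at 13.4 ± 2.90, IFIT1 at 12.2 ± 2.46 and IFITM2 at 5.12 ± 3.89 RPKM (SD, n = 3). The first 3 overlapped each other in that order, as did IFIT2 and IFIT1, and the other neighbours did not overlap. IFIT3 made up 65.3% ± 2.86 of the IFIT sum in I and IFIT5 18.4% ± 2.61 (SD, n = 3). IFITM1 and IFITM3 shared the IFITM sum at 49.0% ± 3.17 and 49.2% ± 3.78 (SD, n = 3). The IFIT sum was 157.6 RPKM in I against 11.6 in C, and the IFITM sum 255.0 RPKM against 1.70, without overlap. The exact permutation p was 0.1 for each sum, the smallest that 3 libraries against 3 can give.

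**Figure D2:**
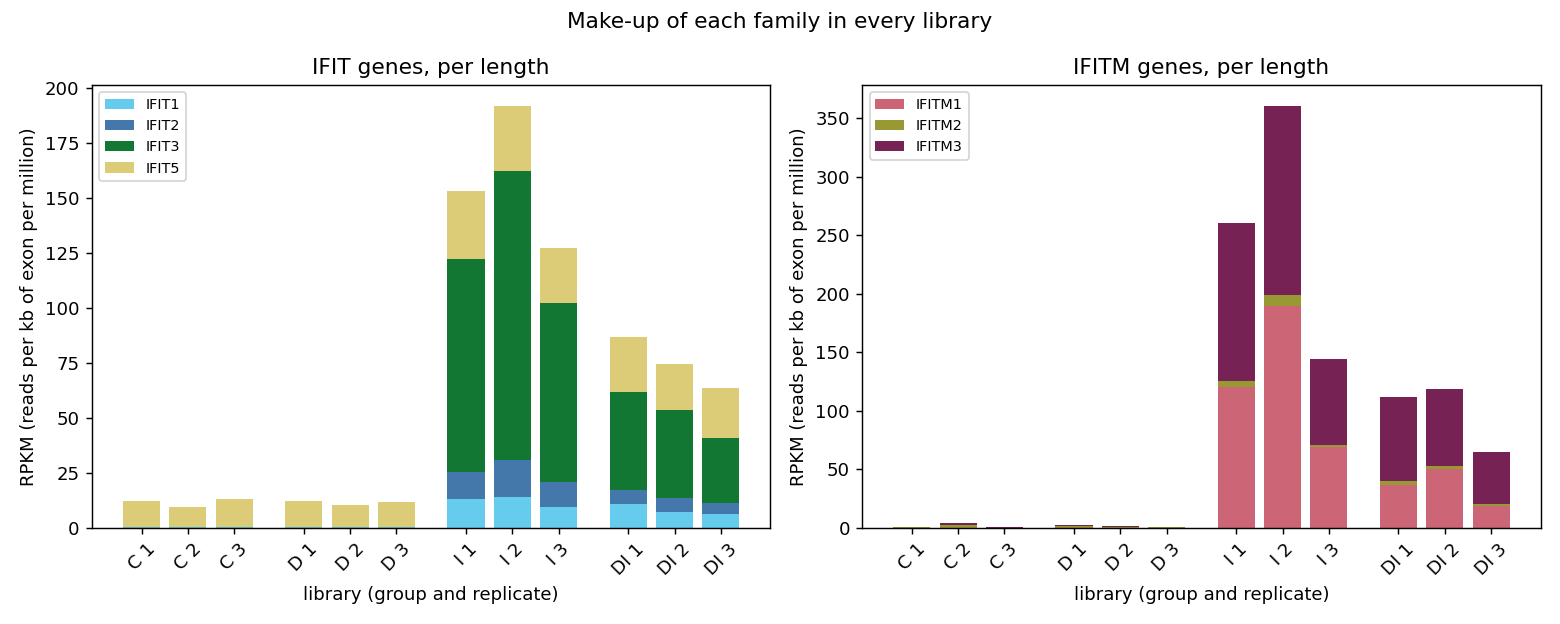
Stacked RPKM of the 4 IFIT genes (left) and the 3 IFITM genes (right) in each library; bars start at 0 and colors stand for genes. IFIT5 fills nearly the whole IFIT bar in C and D, IFIT3 the largest part in I and DI, and every DI bar is lower than every I bar.

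Doxycycline without IFNγ left no member called, where 0.493% of all tested genes were called higher and 0.733% lower. By edgeR 0 of 7 passed, and DESeq2 also called 0. Of the 7, 1 had an unadjusted edgeR p under 0.05, as had 2248 of all 15828 tested genes. That 1 was IFIT2, at 0.667, 0.672 and 0.347 CPM in D, a log2 difference of 0.89 (SE 0.34) from C with an edgeR adjusted p of 0.299, on 14, 13 and 6 reads against 5, 7 and 4. IFIT1 lay at 1.67, 1.50 and 1.27 CPM in D, above every C library, with a log2 difference of 0.54 (SE 0.30) and an edgeR adjusted p of 0.459, where 10.1% of all genes had every D library above every C library. IFIT5 lay at 47.4, 39.1 and 46.4 CPM, within the spread of C. IFIT3 had 0, 2 and 1 reads and IFITM1 had none in D, so no fold is given for them. IFITM2 and IFITM3 overlapped between C and D.

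With doxycycline added to IFNγ, 2 of the 7 members, IFIT2 and IFIT3, were called lower than with IFNγ alone, where 0.569% of all tested genes were called lower and 0.101% higher. IFIT2 stood at 27.1, 26.4 and 20.5 CPM in DI and IFIT3 at 117, 106 and 78.3 CPM. All DI libraries were below all I libraries for both, a pattern that 8.41% of all tested genes shared. The log2 fold change was -1.16 (SE 0.20) for IFIT2 and -1.44 (SE 0.24) for IFIT3, with edgeR adjusted p-values of 0.0330 and 0.0247. Leaving out any 1 of the 6 libraries ended the call of IFIT2, with edgeR adjusted p-values of 0.0704 to 0.144. For IFIT3 the call stood only without I replicate 3, and the other 5 omissions gave 0.0570 to 0.109. A model of I and DI alone called neither, and no other gene of the table (0 by edgeR, 1508 at an unadjusted p under 0.05).

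IFITM1 and IFITM3 were also lower in every DI library than in every I library, but they missed the threshold. IFITM1 stood at 39.7, 53.9 and 19.9 CPM in DI, 27.7% of its mean in I and the lowest fraction of any member. Its log2 difference was -1.85 (SE 0.44) with an edgeR adjusted p of 0.126, and it was called by DESeq2 at an adjusted p of 0.00320. IFITM3 stood at 97.5, 88.0 and 60.0 CPM, 49.2% of its mean in I, with a log2 difference of -1.02 (SE 0.50) and an edgeR adjusted p of 0.459. The spread within I was wide for both, since I replicate 3 held the lowest level and I replicate 2 the highest.

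IFIT1, IFIT5 and IFITM2 overlapped between DI and I. IFIT1 stood at 49.7, 33.3 and 28.2 CPM in DI, a log2 difference of -0.61 (SE 0.23) with an edgeR adjusted p of 0.319. IFIT5 stood at 101.6, 82.7 and 91.1 CPM, or 80.1% of its mean in I, a log2 difference of -0.32 (SE 0.14) with an edgeR adjusted p of 0.406. IFITM2 stood at 4.62, 4.92 and 3.33 CPM, a log2 difference of -0.88 (SE 0.77) with an edgeR adjusted p of 0.738. The median log2 difference of the 7 members was -1.02, beside -0.0068 over all tested genes.

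Libraries with the same replicate number deviated together, so DI was also set against I number by number. IFITM1 stood at 30.5%, 26.4% and 26.6% of I for replicates 1, 2 and 3, the narrowest range of the 7 members. IFIT3 stood at 45.6%, 30.5% and 36.4%, IFIT2 at 55.0%, 38.4% and 43.3%, and IFITM3 at 53.4%, 40.4% and 60.8%. IFIT1 stood at 81.2%, 51.5% and 64.8% and IFIT5 at 81.9%, 69.6% and 90.4%. DI was thus below I in all 3 pairs for 6 members, as it was for 24.5% of all tested genes. IFITM2 was below in 2 pairs, at 68.6% and 34.2%, and above in the third, at 130%. With the replicate number as a block, 5 members were called lower by edgeR, where 6.62% of all tested genes were. The adjusted p-values were 0.0344 for IFIT1, 0.000499 for IFIT2, 0.000355 for IFIT3, 0.000136 for IFITM1 and 0.0490 for IFITM3. IFIT5 (0.0805) and IFITM2 (0.475) were not called with the block.

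**Figure D3:**
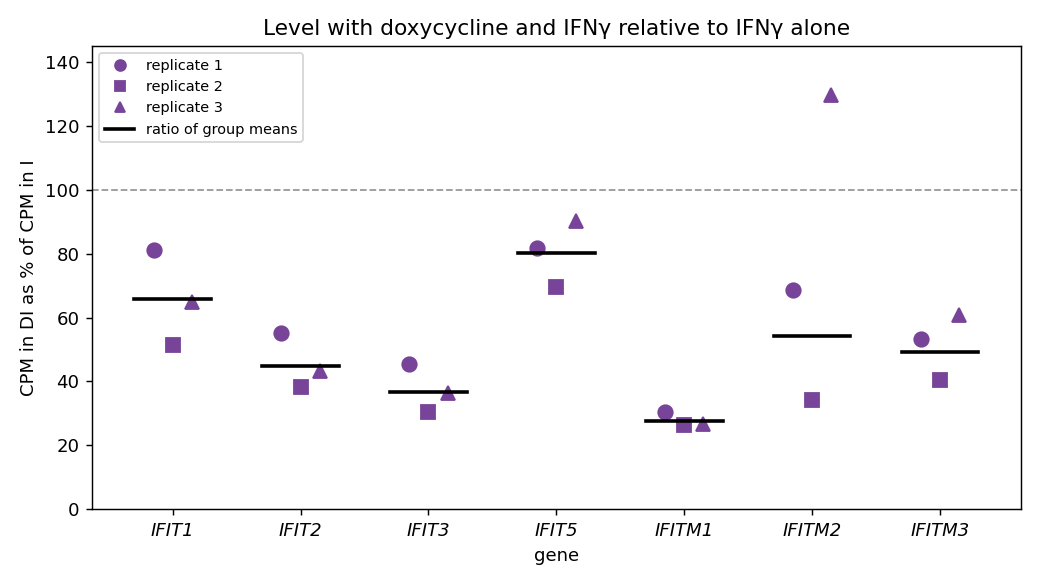
CPM in DI as a percentage of CPM in I for each member; symbols are libraries of the same replicate number, black lines the ratio of the group means and the dashed line 100%. The 3 IFITM1 points lie together near the bottom, and a single IFITM2 point lies above 100%.

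The make-up of the families was also compared between I and DI. IFIT3 made up 65.3% of the IFIT sum in I and 50.5% ± 3.63 in DI, and IFIT5 18.4% in I and 30.9% ± 4.32 in DI (SD, n = 3), with no overlap in either case and an exact permutation p of 0.1, the smallest possible. IFITM1 made up 49.0% of the IFITM sum in I and 34.4% ± 7.06 in DI, and IFITM3 49.2% in I and 62.7% ± 6.80 in DI, also without overlap and at an exact permutation p of 0.1. Shares within a family depend on each other, so the rising and falling shares are not separate results. IFIT5 and IFITM3 held larger shares in DI, though their mean levels were 80.1% and 49.2% of those in I. The whole IFIT sum in DI was 74.9 RPKM, 47.6% of that in I, and the IFITM sum was 98.5 RPKM, 38.7% of that in I. In DI the per-length order was IFITM3 at 60.7, IFIT3 at 38.0, IFITM1 at 35.1, IFIT5 at 22.9, IFIT1 at 8.03, IFIT2 at 6.01 and IFITM2 at 2.78 RPKM. IFITM1 overlapped its neighbours IFIT3 and IFIT5 in that order and IFIT1 overlapped IFIT2, while IFITM3 stood clear of IFIT3.

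IFNγ still raised the same 6 members over D when doxycycline was present, where 1.67% of all tested genes were called higher. Here too, IFIT2, IFIT3, IFITM1 and IFITM3 were in the test only through their reads in libraries with IFNγ. The log2 fold change of DI against D was 4.63 (SE 0.28) for IFIT1, 5.42 (SE 0.27) for IFIT2, 6.96 (SE 0.71) for IFITM3 and 1.05 (SE 0.15) for IFIT5, the last with an edgeR adjusted p of 0.00225. The ratio of summed reads was 1909 for IFIT3 (95% counting interval 653 to 9260), and IFITM1 was at least 712-fold higher than a floor of 3 reads over the D group. IFITM2 was higher in every DI library than in every D library, as were 5.77% of all tested genes, with a log2 difference of 1.48 (SE 0.80) and an edgeR adjusted p of 0.991. With separate replicate blocks for the arms with and without doxycycline, that edgeR adjusted p was 0.000904, and with 1 block for all groups it was 0.123.

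The interaction asked whether the effect of doxycycline on a member differed with IFNγ present. No gene of the table was called by edgeR (0% of tested genes), with 99 at an unadjusted p under 0.05, while DESeq2 called 2, neither a member. Among the members, 0 of 7 were called by either tool and 2 of 7 had an unadjusted edgeR p under 0.05. IFIT2 had a log2 interaction of -2.05 (SE 0.39, unadjusted p = 0.000300, edgeR adjusted p = 1), and IFIT1 had -1.15 (SE 0.38, unadjusted p = 0.0116, edgeR adjusted p = 1). Both combine a lower level in DI than in I with a higher level in D than in C, the latter on the few reads given above.

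The tested genes around the clusters did not pass the test for a response to IFNγ. Within 100 kb, 7 annotated genes neighbour the IFIT cluster and 21 the IFITM cluster, of which 1 and 7 had enough reads to be tested. LIPA, a lysosomal lipase whose gene spans IFIT1, IFIT2 and IFIT3 on the other strand, differed by -0.11 (log2, SE 0.25) between I and C. Around the IFITM genes, RIC8A, SIRT3, PSMD13, PGGHG, B4GALNT4, PKP3 and SIGIRR were tested. None of the 8 was called by edgeR or DESeq2 in I against C or in DI against I, and none had an unadjusted edgeR p under 0.05 in either. By edgeR 2.10% of all tested genes were called higher and 0.114% lower in I against C. In DI against I these shares were 0.101% and 0.569%, so 0 of 8 says little. The log2 differences of the 8 ran from -0.11 to 0.54 in I against C and from -0.95 to 1.14 in DI against I. The ends in DI against I were PKP3 (SE 0.75) and PGGHG (SE 0.69), the latter at 0.370 CPM in C.

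**Figure D4:**
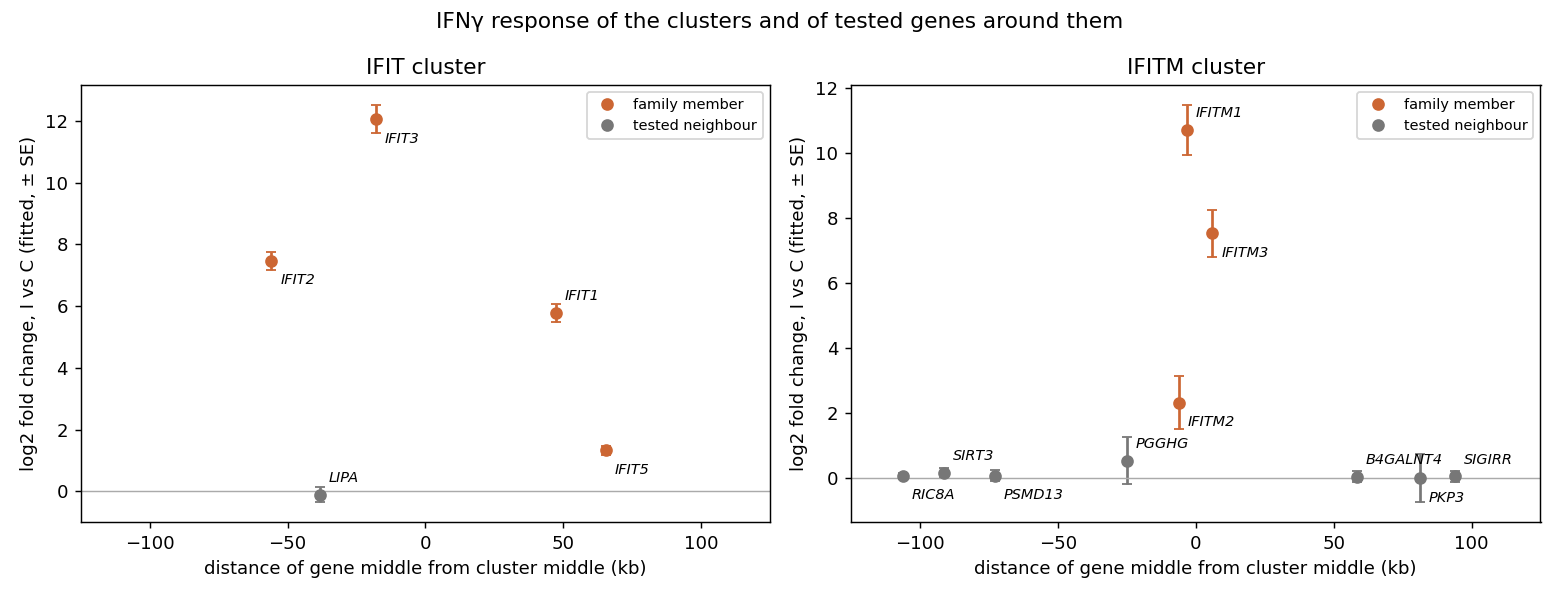
Fitted log2 fold change of I against C (± SE) for family members (orange) and tested neighbours (gray), by distance in kb from the middle of the IFIT cluster (left) or IFITM cluster (right). All neighbours lie near 0, between -0.11 and 0.54, and the fitted values of IFIT3 and IFITM1 depend on the few reads in C.

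Several factors of the interferon pathway that act upstream of these genes rose with IFNγ. Of 13 genes of the interferon receptors and the ISGF3 chain, 7 were called higher in I than in C and none lower, or 9 with the replicate block. The shares of all tested genes called higher were 2.10% and 4.88%. IRF1 rose by 7.58 (log2, SE 0.18) and SOCS1, a feedback inhibitor of the receptor kinases, by 5.89 (SE 0.51), while STAT2 rose by 2.51 (SE 0.21) and IRF9 by 2.74 (SE 0.39). Between DI and I, 1 of the 13 was called, the kinase TYK2, which was higher by 0.60 (SE 0.11, edgeR adjusted p = 0.0341). The log2 difference between DI and I was -0.30 for STAT2, -0.16 for IRF1 and 0.82 for IRF9, none of them called. The largest falls of the list, also not called, were -0.88 (SE 0.39) for SOCS1 and -0.65 (SE 0.25) for JAK2. Their edgeR adjusted p-values were 0.401 and 0.325. Of the 13, 9 had a log2 difference under 0, with a median of -0.23. By edgeR 5 had an unadjusted p under 0.05, as had 1934 of all 15828 tested genes. In D against C, edgeR called none of the 13 and DESeq2 called 2. With the replicate block, edgeR called TYK2 (log2 0.43, adjusted p = 0.0130) and IRF9 (1.42, adjusted p = 0.0259) higher in that comparison. It called 6.23% of all tested genes higher there. All 21 type I, II and III interferon genes in the list had at most 2 reads in any library.

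Of 9 genes that sense nucleic acids in the cytosol, 6 were called higher in I than in C, where 2.10% of all tested genes were. The RNA helicase IFIH1 went from under the floor to 31.0 CPM in I. RIGI rose by 4.39 (log2, SE 0.26) and DHX58 by 4.05 (SE 0.60), while IRF7 rose by 2.15 (SE 0.22) and IRF3 by 1.17 (SE 0.16). IFIH1 and DHX58 entered the test only through their reads in libraries with IFNγ. Between DI and I none of the 9 was called by edgeR or DESeq2. With the replicate block, edgeR called 1 (TRIM25) lower, where 6.62% of all tested genes were. Without the block, 3 had an unadjusted edgeR p under 0.05, and the median log2 difference was -0.44. RIGI was the 1 gene of this list called higher in D than in C, by 1.20 (SE 0.25, edgeR adjusted p = 0.0472).

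Most other antiviral effectors rose with IFNγ. Of 25 tested, 19 were called higher in I than in C and none lower, or 23 with the replicate block. OAS3, a maker of the 2-5A messenger that activates RNase L, had no read in C and 49.1 CPM in I. SAMD9 and XAF1 reached 47.8 and 6.88 CPM from the floor. OAS3, SAMD9 and XAF1, among others, entered the test only through their reads in libraries with IFNγ. The smallest called rises were those of ZC3HAV1 at 1.26 (SE 0.14) and the RNA editor ADAR at 0.86 (SE 0.12). Between DI and I, 22 of the 25 had a log2 difference under 0 and the median was -0.88. By edgeR 1 was called, where 0.569% of all tested genes were called lower. DESeq2 called 9, where it called 635 of all tested genes. With the replicate block, edgeR called 12, all lower, where 6.62% of all tested genes were. The 1 called without the block was IFI27, at 27.3 CPM in DI against 96.0 CPM in I (log2 -1.81, SE 0.30, edgeR adjusted p = 0.0239). Of the 25, only SAMD9L was called in D against C, at 0.0193 against 0.455 CPM and an edgeR adjusted p of 0.0168. With the block, 3 of the 25 were called lower and 1 higher in that comparison, where 7.67% and 6.23% of all tested genes were.

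A list of genes taken to answer IFNγ early (first-wave IFNγ genes) rose as well, though 24 h was the only time sampled. Of 9 tested, 8 were called higher in I than in C, and 9 with the replicate block, where 2.10% and 4.88% of all tested genes were. GBP1, a guanylate-binding protein, reached 1371 CPM, and IDO1 and NLRC5 reached 70.1 and 363 CPM, all from C levels under the floor. GBP1, IDO1 and NLRC5, among others, entered the test only through their reads in libraries with IFNγ. WARS1 rose by 3.99 (log2, SE 0.32). Between DI and I none of the 9 was called by edgeR and 1 by DESeq2. With the replicate block, edgeR called 5 of the 9 lower (GBP1, GBP2, GBP5, ICAM1 and IDO1), where 6.62% of all tested genes were. Without it, 4 had an unadjusted edgeR p under 0.05, 8 had a log2 difference under 0, and the median was -0.80. The 4 genes known to bind or modify IFITM proteins (VAPA, ZMPSTE24, NEDD4 and SETD7) were not called in I against C or in DI against I by edgeR or DESeq2. In D against C, edgeR called 0 of the 4 and DESeq2 1. With the replicate block, edgeR called SETD7 higher and VAPA lower in D against C, where 6.23% and 7.67% of all tested genes were. It called none of the 4 in I against C or in DI against I. Without the block, the log2 differences of the 4 ran from -0.15 for NEDD4 to 0.00034 for SETD7 in I against C. Of the 4, 1 had an unadjusted edgeR p under 0.05 in DI against I and none in I against C.

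The genes whose log2 CPM was most like the mean of the IFIT genes over the 12 libraries were OAS3 (Pearson r 0.998), APOL3 (0.997), DDX60 (0.997), SAMD9 (0.997) and PLAAT4 (0.996). Those most like the IFITM mean were STXBP5 (0.991), TRIM22 (0.990), C1S (0.989), GBP4 (0.987) and IFI6 (0.986). These values are descriptions over 12 libraries that fall into those with and without IFNγ, so they mostly reflect that split. The log2 difference between DI and I ran from -1.33 (SAMD9) to -0.87 (PLAAT4) over the first 5 genes, and from -1.62 (IFI6) to -0.30 (STXBP5) over the others. The genes were picked over libraries that include DI and I, so these differences are not independent of the choice.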

How the data were processed

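The authors deposited raw read counts per gene for 43769 genes from paired-end total RNA libraries (RNA of SK-N-DZ cells, 4 groups of 3). The aligner, counter and strand setting are not given in the sources used here, and the submitters' processing notes name DESeq2. All gene identifiers were found in GENCODE 29 (GRCh38). The authors' tables of their own comparisons (log2 fold changes and p-values) and 18 per-library columns that no label explains were not used.

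Counts were scaled by TMM, filtered with filterByExpr (minimum count 10) and tested in 1 group-means model of 12 libraries by the two-sided quasi-likelihood test of edgeR 4.0.16 (R 4.3.3, limma 3.58.1), with Benjamini-Hochberg adjustment over 15828 genes and a threshold of 0.05. CPM divides by the TMM-scaled library size, and RPKM further divides by merged exon length. Likeness used log2 CPM with a prior count of 2. Exact permutation tests compared 3 libraries with 3. The code was tested on simulated counts. Python 3.11.15 searched the promoters.

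Same-numbered libraries correlated at 0.338 to 0.804 after group means were removed (18 pairs) and others at -0.628 to 0.143 (36 pairs), so the numbers were taken to pair libraries, and the block is given beside the results it changes. Replicates differed by more than counting noise (chi-square per gene 18.4 to 78.6). Alternatives were DESeq2 1.42.0, other scalings, no count filter, only the groups compared, the block and leaving out each library. All 7 members are described. From the other lists the called genes with the 3 largest and 2 smallest changes are named, with the tested neighbours within 100 kb, the 5 genes most like each family, ARID1A, and a few more that were chosen after their values were seen. Results of 2 listed genes are not reported here. Members and lists were chosen with earlier results of these data known.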

Additional observations from a re-analysis of the deposited data

How the results depend on the processing

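The count of members called was 6 in I against C, 0 in D against C, 6 in DI against D and 0 for the interaction, and in each of these it stayed within 1.5 times of that count under every alternative run. In DI against I it was 2, and it was 0 when only the 2 groups were fitted, 5 with the replicate block, 3 by DESeq2, and 0 to 1 when 1 library was left out. The cause was not tested, though the 2-group model and the omissions rest on fewer libraries. No log2 fold change of a called member reversed. The replicate block changed the call of IFITM2 in I against C and of IFIT1, IFITM1 and IFITM3 in DI against I, and of no other member. Its effect on the other gene lists stands beside the counts printed for them, and DI against D is not among these. With separate blocks for the arms with and without doxycycline, IFITM2 was also called in I against C (adjusted p = 6.08e-06) and in DI against D (0.000904) by edgeR.

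Over all genes, DI against I gave 106 calls, against 635 by DESeq2, 1658 with the block, 0 with only those groups and 35 to 77 with 1 library left out. D against C gave 194, against 825, 2200, 16 and 42 to 98 in the same order, and 119 with no count filter. I against C gave 350, against 558 by DESeq2, 953 with the block and 2318 with it inside each arm, and DI against D gave 273, against 442, 706 and 1770. The interaction gave 0, against 2 by DESeq2 and 4 with the block inside each arm. With library size alone as scaling, D against C split into 199 higher and 89 lower (78 and 116 by TMM), and DI against I into 54 and 65 (16 and 90). At this depth, levels under 0.135 to 0.187 CPM could not be told from 0, which limits IFIT3 and IFITM1 without IFNγ.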
